A study of Mus musculus with 12 samples.

Results

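The genes described here encode the muscle acetylcholine receptor and the agrin-MuSK pathway that gathers this receptor at the neuromuscular junction. The members were the rows of the 3 deposited tables whose gene name was one of 10 fixed names, and all 10 were found among the 10289 genes with a row in at least one table. There were 5 receptor subunit genes (Chrna1, Chrnb1, Chrnd, Chrng and Chrne) and 5 genes of the clustering pathway (Agrn, Lrp4, Musk, Dok7 and Rapsn). The RNA came from C2C12, a mouse myoblast line that divides in growth medium (GM) with 10% fetal bovine serum and fuses into myotubes in differentiation medium with 2% horse serum. Stable C2C12 cells overexpressing GFP, the negative control, were sequenced in GM (day 0) and after 4 days in differentiation medium (D4). Stable cells overexpressing mouse METTL3 or METTL14, which form the core of the m6A methyltransferase, were sequenced in GM. Each of these 4 groups had 2 libraries. The labels do not say whether the libraries came from separate cultures.

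All lines carried a lentiviral vector and had been selected with puromycin, and the culture protocol names no nerve cells. For the METTL14 libraries the titles give day 0 and the time point field gives D4. The paper describes the METTL14 comparison as made in GM, so day 0 was used. The tables compare D4 with GM in GFP cells, METTL3 with GFP cells, and METTL14 with GFP cells. They share the GFP libraries in GM as the reference, so the presence of a gene in more than one table is not independent evidence. Each table holds only genes that passed the authors' limit of FDR ≤ 0.05. Such genes are called listed here. The fold changes and p-values in the tables are the authors' own comparisons and were not used, so no gene is described as higher or lower in any group. The value used was the mean normalized count, which the authors averaged over libraries. It has the same value for a gene in every table, so it mixes cells in GM and at D4 and all 3 overexpressing lines. It is given without an SD because the tables hold no value for a single library. Sequencing depth was not examined here. The overexpressed genes passed the limit in their own tables. Mettl3 had a row for METTL3 against GFP and Mettl14 a row for METTL14 against GFP, with mean normalized counts of 5827 and 6250, and neither had a row for the other line. Without direction this does not check the labels further.

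At the neuromuscular junction, acetylcholine released by the motor nerve opens a receptor made of 5 subunits. Before innervation the muscle receptor contains α1, β1, δ and γ subunits, and in adult muscle the ε subunit takes the place of γ. The nerve secretes agrin, which binds LRP4 on the muscle surface. LRP4 then activates the receptor tyrosine kinase MuSK together with its cytoplasmic activator DOK7, and rapsyn, encoded by Rapsn, anchors the receptors in clusters. Several of these genes are known targets of the myogenic factors MyoD and myogenin, which bind the E-box, and the N-box is known as a site for Ets factors in genes expressed at synapses.

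The bases upstream of 3 receptor genes are shown because these genes lie at the ends of the range of levels: Chrna1 and Chrng had the highest levels per kilobase of the members and Chrne the lowest. Each sequence is the 250 bases before a RefSeq start on GRCm38.p6, written in the direction of transcription. E-boxes (CANNTG) and the N-box (CCGGAA) are in capitals. The windows are chr2:73580339-73580588 on the minus strand for Chrna1, chr1:87205561-87205810 on the plus strand for Chrng and chr11:70619195-70619444 on the minus strand for Chrne. RefSeq and GENCODE, which gives the gene positions below, do not place all starts alike. The Chrna1 start is the same in both. The RefSeq start of Chrng lies 1154 bases downstream of the start of the GENCODE gene, so its window lies inside the gene as GENCODE draws it, with 1 base in an annotated exon. The RefSeq start of Chrne lies 22 bases downstream of the GENCODE one, and the last 22 bases of its window are in an annotated exon.
Chrna1: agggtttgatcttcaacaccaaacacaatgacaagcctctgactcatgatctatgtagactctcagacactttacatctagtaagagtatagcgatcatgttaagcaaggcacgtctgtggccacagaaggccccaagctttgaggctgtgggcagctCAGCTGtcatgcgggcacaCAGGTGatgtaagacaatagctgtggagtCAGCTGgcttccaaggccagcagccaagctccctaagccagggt
Chrng: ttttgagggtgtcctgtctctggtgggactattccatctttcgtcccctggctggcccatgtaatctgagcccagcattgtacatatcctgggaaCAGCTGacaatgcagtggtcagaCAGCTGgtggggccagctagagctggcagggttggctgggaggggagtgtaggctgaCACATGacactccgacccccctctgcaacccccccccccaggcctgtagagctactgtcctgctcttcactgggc
Chrne: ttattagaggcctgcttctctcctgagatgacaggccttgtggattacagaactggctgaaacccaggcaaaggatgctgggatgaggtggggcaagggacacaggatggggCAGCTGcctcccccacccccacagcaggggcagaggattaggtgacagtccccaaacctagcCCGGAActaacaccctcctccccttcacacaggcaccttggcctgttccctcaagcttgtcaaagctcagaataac

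Windows of this kind were at hand for 7 members, with 9 starts in all, because Agrn and Dok7 have a pair of starts each. Chrnd, Rapsn and Lrp4 had no entry. The motifs were searched on both strands of the bases before the start. An E-box was found in 7 of the 9 windows, at least 1 for each of the 7 genes, and in 66.2% of the 32851 mouse windows of the same length. The only E-box of Agrn was in the window of its downstream start, which lies 11229 bases downstream of the start of the GENCODE gene. The window of the downstream Dok7 start also lies inside the GENCODE gene, with 167 bases in an annotated exon, and held none. Chrna1, Chrnb1, Chrng and Musk each held 3 E-boxes, a number reached or exceeded by 12.2% of all windows. The form CAGCTG, one of the E-boxes, occurred in the windows of Chrna1 (2 matches), Chrng (2 matches), Musk (1 match) and Chrne (1 match). Of all windows, 13.0% held at least 1 such match and 1.26% held at least 2. Counted back from the start, the CAGCTG matches began at -92 and -44 for Chrna1 and at -155 and -132 for Chrng. The N-box was found in the Chrne window, beginning at -76, and in 12.0% of all windows. These matches describe the letters of the windows and were not tied to any measurement of binding.

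**Figure D1:**
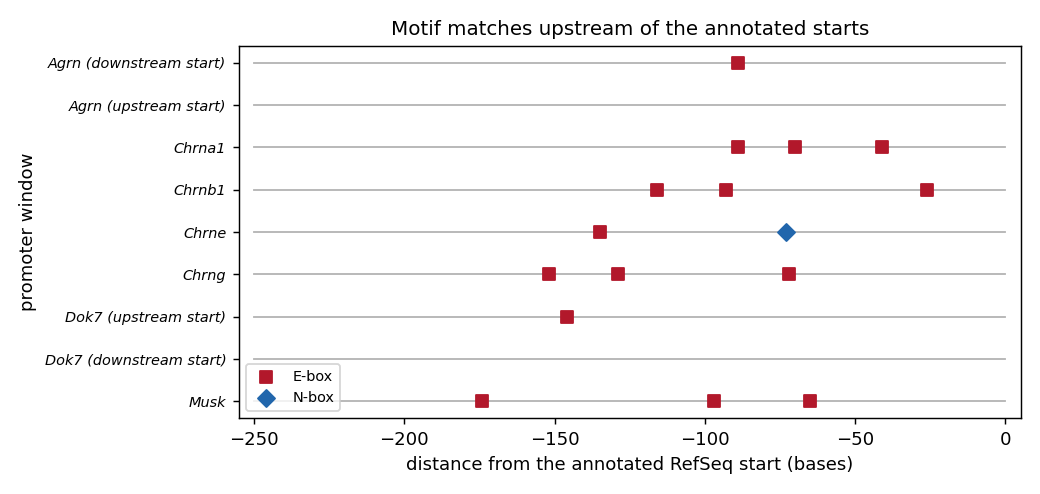
Positions of E-boxes (red squares) and the N-box (blue diamond) in the 9 windows before the annotated RefSeq starts, each marked at its middle, with the distance from the start in bases on the x axis and a line for each window on the y axis. Chrna1, Chrnb1, Chrng and Musk each show 3 E-boxes, and the windows without a mark are the upstream start of Agrn and the downstream start of Dok7.

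Unless another length or the undivided count is named, levels of different genes were compared as the mean normalized count per kilobase of annotated exons. On this scale the members ran from 11.9 for Chrne to 4278 for Chrna1, a 358-fold range. Their median was 439, against 99.6 for all listed genes with a length (interquartile range 27.5 to 253). Of the 10 members, 8 lay above the median of all listed genes, and the exceptions were Dok7 and Chrne. The median member lay above 85.7% of listed genes. Being listed depends in part on a gene's level, so these percentages describe listed genes and not the whole transcriptome.

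**Figure D2:**
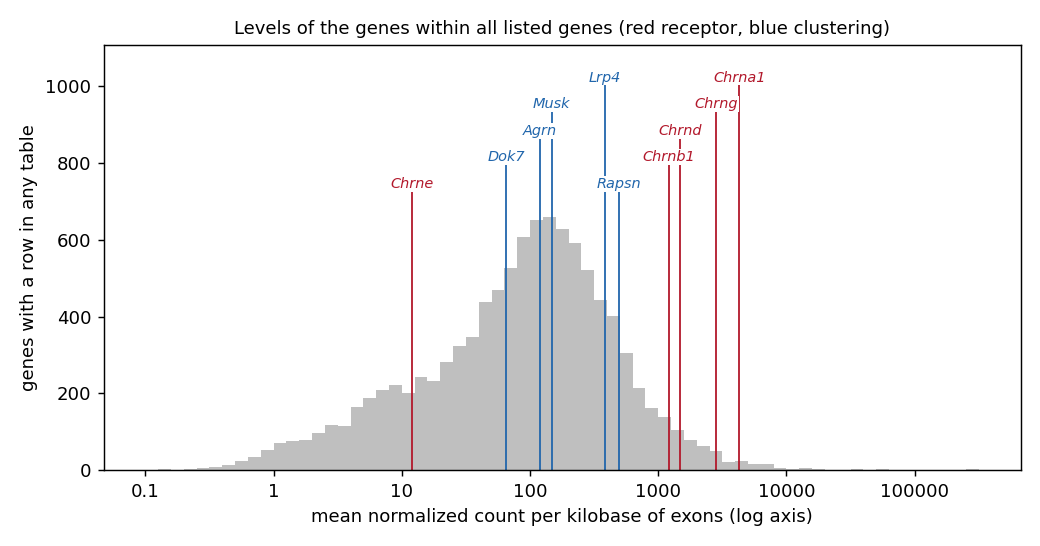
Histogram of the mean normalized count per kilobase of exons (log x axis) for the listed genes, with the number of genes on the y axis and a vertical line for each member, red for receptor subunits and blue for the clustering pathway. Chrna1, Chrng, Chrnd and Chrnb1 lie in the upper tail, the clustering genes lie from 65.0 to 493 and Chrne lies at 11.9.

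Of the receptor subunits, 4 were among the most abundant listed RNAs and 1 was near the bottom. Chrna1 (ENSMUSG00000027107, chromosome 2 of GRCm38, 73563215 to 73580338) encodes the α1 subunit, which carries the main part of the acetylcholine binding site and is present as a pair in each receptor. Its mean normalized count was 18765 over all libraries pooled, or 4278 per kilobase, above 99.2% of listed genes. Only 78 listed genes had a higher level per kilobase. Chrng (ENSMUSG00000026253, chromosome 1, 87204657 to 87212694) encodes the γ subunit of the embryonic receptor. Its mean normalized count was 11833, or 2842 per kilobase, above 98.7% of listed genes.

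Chrnd (ENSMUSG00000026251, chromosome 1, 87190607 to 87200070) encodes the δ subunit and lies 4586 bases upstream of Chrng on the same strand. Its mean normalized count was 4861, or 1478 per kilobase. Chrnb1 (ENSMUSG00000041189, chromosome 11, 69784036 to 69795943), which encodes the β1 subunit, had a mean normalized count of 3041, or 1202 per kilobase. These levels per kilobase lay above 96.8% and 95.9% of listed genes. Chrne (ENSMUSG00000014609, chromosome 11, 70614883 to 70619216) encodes the ε subunit of the adult receptor. Its mean normalized count was 20.2, or 11.9 per kilobase, above 16.0% of listed genes.

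The ratio of the γ to the ε subunit RNA was therefore 238 per kilobase of exons in the pooled mean. It was 341 with the longest transcript and 558 with the coding length, so γ far exceeded ε under each length. Of the summed level per kilobase of the 5 subunits, Chrna1 made up 43.6%, Chrng 29.0%, Chrnd 15.1%, Chrnb1 12.2% and Chrne 0.122%. The ratios and shares given here mix cells in GM and at D4 and need not hold at either stage. The level of Chrna1 per kilobase was 3.56 times that of Chrnb1, 2.89 times that of Chrnd and 1.51 times that of Chrng. With the coding length these ratios were 6.76, 4.39 and 1.80, and with the longest transcript they were 3.03, 2.60 and 1.01. The last of these is low because Chrng has 5 annotated transcripts whose joined exons span 4163 bases while its longest transcript has 2780. Chrna1 has 1 annotated transcript of 4386 bases. The order of these 2 genes is thus close to a tie under that length, and no replicate spread is at hand to separate them or any other pair of neighbours.

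The clustering pathway genes had lower levels than the 4 abundant subunits, with a median of 148 per kilobase against 1478 for the 5 subunits. Agrn (ENSMUSG00000041936, chromosome 4, 156165290 to 156197488) encodes agrin, the ligand, which muscle cells also make in a form with little clustering activity. Its mean normalized count was 1107, or 119 per kilobase, above 54.9% of listed genes. The reads per gene do not separate the nerve and muscle forms of agrin. Lrp4 (ENSMUSG00000027253, chromosome 2, 91457511 to 91513779), the agrin receptor, had a mean normalized count of 4053, or 386 per kilobase. As counts, Lrp4 stood above Chrnb1, and per kilobase it stood below it, since its exons add up to 10504 bases.

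Musk (ENSMUSG00000057280, chromosome 4, 58285960 to 58374303), the kinase at the centre of the pathway, had a mean normalized count of 557, or 148 per kilobase. Dok7 (ENSMUSG00000044716, chromosome 5, 35056766 to 35087839), whose product binds and activates MuSK, had a mean normalized count of 278, or 65.0 per kilobase, above 39.8% of listed genes. Rapsn (ENSMUSG00000002104, chromosome 2, 91035620 to 91045729) had a mean normalized count of 888, or 493 per kilobase, the highest of the clustering genes on that scale. The Chrna1 level per kilobase was 8.68 times that of Rapsn, and 19.1 times with the coding length. Lrp4 stood at 2.61 times the level per kilobase of Musk, and 3.41 times with the coding length. Musk stood at 2.27 times that of Dok7, and 1.28 times with the coding length. The order of the 10 members from Chrna1, Chrng, Chrnd, Chrnb1, Rapsn, Lrp4, Musk, Agrn and Dok7 down to Chrne was the same with all 3 lengths. The closest neighbours per kilobase of exons were Chrnd and Chrnb1 (1.23-fold), Musk and Agrn (1.24-fold) and Rapsn and Lrp4 (1.28-fold). With the coding length Rapsn and Lrp4 were nearly tied, at 718 and 709.

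**Figure D3:**
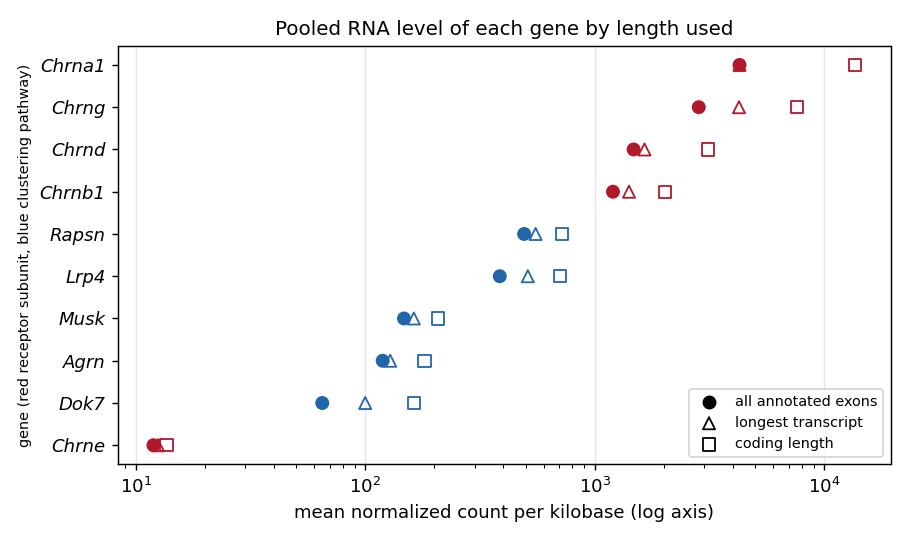
Mean normalized count per kilobase (log x axis) of the 10 members (y axis), divided by the length of all annotated exons (filled circles), of the longest transcript (triangles) or of the coding sequence (squares), with receptor subunits in red and clustering genes in blue. The order of the genes is the same for the 3 lengths, and the span from Chrne to Chrna1 is wide under each.

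In the comparison of D4 with GM, which asks what changes as myoblasts become myotubes, all 10 members were listed. The table listed 95.5% of the genes with a row in any table and 40.0% of the annotated protein-coding genes. Because membership required a row in at least one table, the count of 10 lies close to the first of these shares. The list included Chrne despite its low level, and the pair of subunits that replace each other, Chrng and Chrne, were both present.

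In the comparison of METTL3-overexpressing with GFP-overexpressing cells in GM, 7 of the 10 members were listed (70.0%). This table listed 17.0% of the genes with a row in any table and 7.78% of the annotated protein-coding genes. Among genes whose mean normalized count reached 100 it listed 19.4%, and 7 of the 9 members at that level (77.8%). The listed members were the subunit genes Chrna1, Chrnb1, Chrnd and Chrng, and Musk, Dok7 and Rapsn of the clustering pathway. The agrin gene and its receptor gene Lrp4 were not listed, although their mean normalized counts were 1107 and 4053, and neither was Chrne. A gene that is not listed has no value in the table, so it was not shown to be the same in both lines.

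In the comparison of METTL14-overexpressing with GFP-overexpressing cells in GM, 3 of the 10 members were listed (30.0%), namely Chrna1, Chrnb1 and Rapsn. This table listed 10.7% of the genes with a row in any table, 4.90% of the annotated protein-coding genes and 12.0% of the genes whose mean normalized count reached 100. Of the 9 members at that level, 3 were listed (33.3%). The 4 members that were listed for METTL3 and not for METTL14 were Chrnd, Chrng, Musk and Dok7. Of all 1754 genes listed for METTL3, 809 were also listed for METTL14, so being listed for METTL3 and not for METTL14 was common. Whether the response of these 4 members differed between the lines was not tested, since a gene can pass the limit in one comparison and narrowly miss it in the other. By role, 4 of 5 subunit genes and 3 of 5 clustering genes were listed for METTL3, and 2 of 5 and 1 of 5 for METTL14. Agrn, Lrp4 and Chrne were listed for D4 against GM and for neither overexpressing line. Most genes listed for D4 against GM were in the same position. Of all 9823 such genes, 1368 were also listed for METTL3 and 857 for METTL14.

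**Figure D4:**
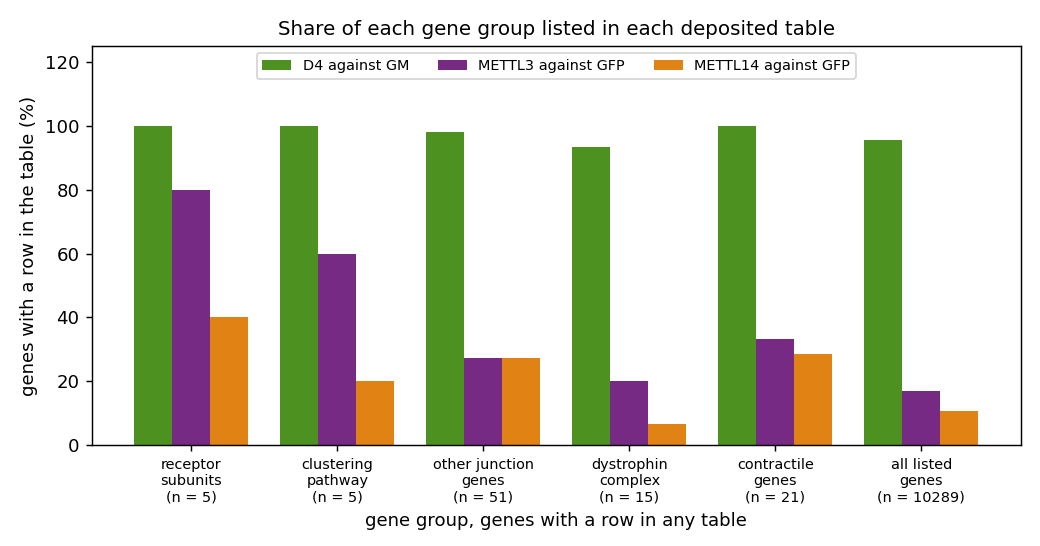
Percent of each gene group (x axis, genes with a row in any table) that had a row in the table for D4 against GM (green), METTL3 against GFP (purple) and METTL14 against GFP (orange). The receptor subunits reach 80.0% and the clustering genes 3 of 5 for METTL3, and all genes with a row in any table reach 17.0%.

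A wider list of 61 genes tied to the junction was examined in the same way. It held enzymes, basal lamina proteins, neuregulin receptors, kinases and cytoskeletal linkers, and none of the members. Of these, 51 had a row in some table, 50 for D4 against GM, 14 for METTL3 and 14 for METTL14. As a share of the genes with a row, this was 27.5% for each overexpressing line, beside 70.0% of the members for METTL3 and 30.0% for METTL14. For all genes with a row in any table the shares were 17.0% and 10.7%. The difference between the lists was not tested. The 17 wider genes listed for METTL3 or METTL14 included basal lamina genes (Col4a1, Col4a2, Col4a5, Lama2, Lama4, Nid1 and Nid2), the neuregulin gene Nrg1 with its receptor gene Erbb3, and the kinase genes Src and Fyn, whose products phosphorylate the receptor. The others were Etv4, Hdac9, Rhoa, Sntb1, Syne1 and Vangl2.

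The wider junction genes ran from 0.759 per kilobase for Col13a1, which encodes a collagen of the synaptic cleft, to 1773 for the small GTPase gene Cdc42. After Cdc42 came Hspg2, the gene of the basal lamina proteoglycan perlecan, with 1626, and Myog, which encodes myogenin, with 1421. None of them reached the level of Chrna1. Ache, the gene of the acetylcholinesterase that ends transmission at the junction, had a mean normalized count of 15.8, or 3.43 per kilobase. Colq, the gene of the collagen tail that anchors this enzyme, had 8.85 per kilobase. Both of these, chosen for mention after their values were seen, lay below Chrne on that scale and were listed for D4 against GM alone.

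Of 11 neuronal acetylcholine receptor subunit genes, 2 were listed (18.2%), both for D4 against GM. That comparison listed 40.0% of the annotated protein-coding genes. The 2 genes were Chrnb2 with 3.42 and Chrna5 with 0.821 per kilobase. The others have no value here, so their levels are unknown. Other muscle gene groups had other levels and shares. The dystrophin complex, which links the cytoskeleton to the basal lamina, had all 15 genes in some table, from 1.92 per kilobase for Dmd to 1192 for Dag1, with Sgcb at 686 and Sgca at 345 next after Dag1. Of these 15 genes, 14 were listed for D4 against GM, 3 for METTL3 and 1 for METTL14. All 21 contractile genes were listed for D4 against GM, 7 for METTL3 and 6 for METTL14. They ran from 59.6 per kilobase for Actn2 to 34861 for Acta1, with Mylpf at 19762 and Tpm2 at 7631, and 6 of them exceeded Chrna1. As shares, this was 20.0% of the dystrophin complex genes and 33.3% of the contractile genes for METTL3, and 6.67% and 28.6% for METTL14. Of all genes with a row in any table, 95.5% were listed for D4 against GM, 17.0% for METTL3 and 10.7% for METTL14. The shares of the dystrophin complex genes for the overexpressing lines were near these.

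Markers of cell types, chosen with earlier results of these data known, were looked up in the same way. A marker has a row only if it passed the limit in a comparison, so this is not an independent check of identity. All 10 muscle markers had a row in some table, led by Acta1, Tnnt3 (6835 per kilobase) and Myh3 (6665 per kilobase), with Mef2c lowest at 18.3. Of these markers 9 were listed for D4 against GM, 5 (50%) for METTL3 and 6 (60%) for METTL14, beside 70.0% and 30.0% of the members for the overexpressing lines. For all genes with a row in any table the shares were 95.5%, 17.0% and 10.7%. Of 10 neuronal markers only Tubb3 had a row (249 per kilobase), and the motor neuron genes Chat, Slc18a3, Isl1 and Mnx1 had none. Schwann cell markers with a row included Erbb3 with 160, Ngfr with 28.6 and Mbp with 4.62 per kilobase, and the defining gene Sox10 had none. Endothelial markers with a row were Tek (12.0 per kilobase) and Cldn5 (3.07 per kilobase), 2 of 5, and none of the 5 immune markers had one. A gene without a row has no value here, so its level is unknown.

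The exons of 9 members shared no base with exons of another annotated gene. Rapsn shared 4 bases (0.222% of its exons) with Gm13778, a transcript on the opposite strand.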

How the data were processed

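The tables come from 8 RNA-seq libraries of C2C12 cells, and the 4 MeRIP-seq libraries were not analysed here. Groups were taken from the sample titles. Clean reads were aligned by the authors to GRCm38 with hisat2, counted per gene with featureCounts on an Ensembl annotation and compared with DESeq2, and the 3 deposited tables keep genes at FDR ≤ 0.05. No program version is given in the sources used here. The value used from the deposited tables is DESeq2's baseMean, a signal made by dividing counts by size factors and averaging over libraries, which the authors deposited. It was the same for a gene in every table that lists it (largest relative difference 4.77e-10 over 1746 genes). The other numeric columns hold the authors' log2 fold changes, standard errors, Wald statistics and p-values, and these were not used. No test was possible without values per library.

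The mean normalized count was divided by the length of the union of annotated exons (GENCODE M21 on GRCm38, the same build but another annotation release), which was found for 10285 of 10289 genes by Ensembl identifier. Genes were matched by the gene name in the tables. The length and rank functions were tested on simulated data and recovered the known answer in 100% of 200 cases per function. Promoter windows came from RefSeq on GRCm38.p6. Named genes were the 10 members, the 3 highest and the lowest gene per kilobase of each list, and the wider junction genes listed for METTL3 or METTL14. The members and lists were chosen with earlier results of these data known. Python 3.11.15, pandas 2.3.3, NumPy 2.4.6 and matplotlib 3.10.9 were used. Alternatives tried were other lengths, other sets of genes for the ranks, a limit of 10 on the mean normalized count, and matching by Ensembl identifier. Some Schwann cell markers are not reported here.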

Additional observations from a re-analysis of the deposited data

How the results depend on the processing

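The counts of listed members in the 3 tables (10, 7 and 3) were unchanged by matching on Ensembl identifiers. Keeping genes whose mean normalized count reached 10 could not change them, since the lowest member, Chrne, had 20.2. The percent of listed genes below the median member moved from 85.7% to 84.6% with protein-coding genes only, to 85.6% with the D4 against GM table only and to 84.8% with that limit of 10. The median level per kilobase of the members moved from 439 to 714 with the coding length and to 532 with the longest transcript. The share of Chrna1 in the summed level of the receptor subunits moved from 43.6% to 51.8% with the coding length, 36.9% with the longest transcript and 48.7% with no division by length. Chrna1 stayed the largest share under each, and with the longest transcript Chrng followed at 36.7%. The pooled mean weighs the stages by the libraries that entered it, and among the RNA-seq groups only the GFP cells at D4 had left GM. It therefore does not give a level in GM or at D4. No paired analysis was possible because the tables hold no value per library, and leaving out a replicate could not be run for the same reason.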
